A study of Mus musculus with 12 samples.

Results

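The E14 line, a male wild-type mouse embryonic stem cell line, was compared between its differentiated state (2 libraries) and its undifferentiated state (2 libraries). These 4 libraries were taken by their labels from a series of 12 that also holds 2 female lines in the same states, Pgk12.1 (wild type) and a line labelled RlimKO. The series sets the female lines against the male one to follow X chromosome inactivation in culture, and the question here is what differentiation did to the male cells themselves. Undifferentiated cells were kept in stem cell medium with LIF, the cytokine that sustains mouse stem cells. Differentiated cells were grown without LIF for 3 days as embryoid bodies, floating aggregates of differentiating cells, and were then cultured for 6 days in 7.5% oxygen. Each line is a single line, and all samples carry the strain label C57BL/6. Nothing in the labels tells whether replicates are separate cultures. Each p-value therefore sets a difference against how far these libraries scatter, and that scatter may be technical. An exact permutation test of 2 against 2 libraries cannot go below p = 0.33.

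Mouse embryonic stem cells are held in a naive state by a network of transcription factors around Pou5f1 (Oct4), Sox2 and Nanog, fed by LIF and by Nodal-type signals. When LIF is withdrawn in embryoid bodies this network is shut down, an outer layer of extraembryonic endoderm lays down a basement membrane, and mesoderm inside gives rise to heart muscle, smooth muscle, blood, vessels and mesenchyme. Embryoid bodies are mixtures, and their proportions are known to vary between cultures. In such bulk RNA, a change in the number of cells of a type cannot be told apart from a change in RNA per cell.

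The differentiated pair was far less alike than the undifferentiated pair, which sets the way all results below are given. Outside the ribosomal RNA precursor gene Rn45s and the gene Lars2, which were left out, the differentiated libraries held 2388114 and 5057003 counts in genes (replicates 1 and 2), and the undifferentiated ones 1355006 and 2309448. Rn45s had taken 22.5% and 6.36% of gene counts in the differentiated libraries, and 55.0% and 39.3% in the undifferentiated ones. Lars2 had taken 0.862% and 0.0212% in the differentiated libraries, and 7.22% and 4.82% in the undifferentiated ones. Its share in the libraries of the female lines was 2.71% to 7.84%. Whether a difference in library preparation lies behind the gaps between the differentiated libraries was not tested. A chi-square of counts between the 2 libraries of a group came to 24.8 per degree of freedom in differentiated E14, against 2.32 in undifferentiated E14 and 1.85 to 2.20 in the 4 female groups. Across genes, log2 CPM of the differentiated libraries correlated with r = 0.923 and that of the undifferentiated libraries with r = 0.971, while each differentiated library stood at r = 0.611 or r = 0.680 to the undifferentiated mean. CPM means counts per 1e+06 of the library after TMM scaling over the 4 libraries; levels of different genes are not compared, since CPM are not divided by gene length.

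In edgeR's quasi-likelihood test on the 4 libraries, with Benjamini-Hochberg adjustment over 11976 genes, 5005 genes (41.8%) had an adjusted p below 0.05 and are said to be called. Of these, 2696 (22.5% of genes tested) rose and 2309 (19.3%) fell. A call was said to hold in both libraries when each differentiated library also lay at least 1 log2 unit beyond the undifferentiated mean, and beyond both undifferentiated libraries. By this rule 2086 rises (17.4%) and 1627 falls (13.6%) held in both, and 1292 calls did not. The call counts depended on single libraries: 7549 and 7411 genes were called without differentiated replicate 1 and replicate 2, and 1786 and 1436 without undifferentiated replicate 1 and replicate 2. The spread then came from the remaining pair, which was tight when a differentiated library was left out and wide when an undifferentiated one was. In all 4 of these fits 1307 genes stayed called, 806 higher and 501 lower, and every one of them held in both libraries. A named gene whose call is given belongs to these 1307 unless the text says otherwise. Genes given beyond those of the naming rule were chosen after their values were seen. A gene silent in undifferentiated cells could pass the filter on low counts only by being high after differentiation, so counts of rises among tested members of a list describe the list and are not support for its direction. Each count for a list from the fit of 4 libraries is to be read beside the shares of all genes tested in it. These were 22.5% rising, 19.3% falling, 17.4% rising and held, and 13.6% falling and held. Fits that left out a library had other call rates over all genes. The filter was applied anew in each, so the number of members tested could change. List counts from those fits are therefore not to be read beside these shares, nor as changes particular to a list.

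**Figure D1:**
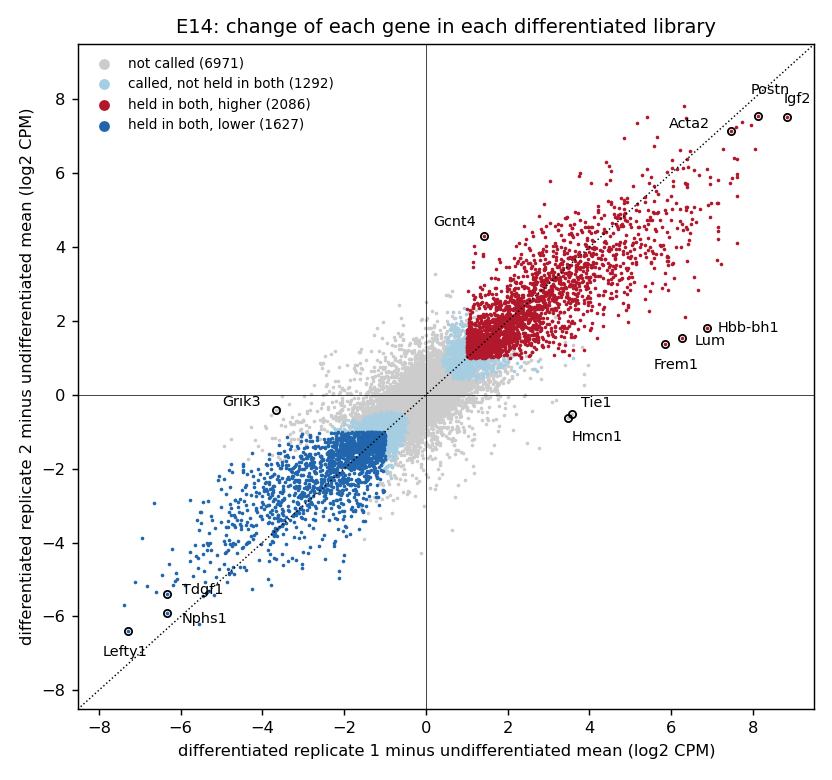
Change of each of 11976 genes in differentiated replicate 1 (x axis) and replicate 2 (y axis), each as log2 CPM minus the mean of the undifferentiated E14 pair, with genes coloured by whether the change was called and held in both libraries. Points near the dotted diagonal changed alike in both libraries, as Postn and Tdgf1 did; Hbb-bh1 and Lum lie far to the right of it and Grik3 and Gcnt4 above it.

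Pluripotency genes gave the clearest fall that both differentiated libraries shared. Of 14 genes of naive pluripotency, 13 fell and all 13 held in both (median log2 fold change -3.99), and of 12 core and general pluripotency genes all 12 fell and held (median -4.42), against 19.3% of all genes falling and a median of 0.03 over all genes. Pou5f1, the POU factor at the centre of the network, stood at 12.4 and 21.9 CPM in differentiated cells, against 708 and 661 CPM in undifferentiated cells (log2 fold change -5.27 ± 0.31, adjusted p = 0.000251). Nanog, its homeodomain partner, stood at 11.9 and 24.0 CPM in differentiated cells, against 292 and 290.2 CPM in undifferentiated cells (log2 fold change -3.96 ± 0.34, adjusted p = 0.000502). Both genes were low in both differentiated libraries and nearly equal in the undifferentiated pair, so the groups did not overlap. Esrrb, an orphan nuclear receptor of the naive network, had 12.4 and 26.5 CPM after differentiation, against 529 and 475 CPM before (log2 fold change -4.63 ± 0.36, adjusted p = 0.000415). Tdgf1, the Nodal co-receptor Cripto, fell to 5.75 and 11.6 CPM in differentiated cells, against 505 and 532 CPM in undifferentiated cells (log2 fold change -5.81 ± 0.33, adjusted p = 0.000222). Fgf4, an autocrine growth factor of stem cells, showed the same order, with 7.52 and 12.8 CPM in differentiated cells, against 212 and 220.5 CPM in undifferentiated cells (log2 fold change -4.35 ± 0.30, adjusted p = 0.000321). The member of the naive list that was not called was Tbx3, with 62.8 and 62.9 CPM in differentiated cells, against 70.1 and 63.8 CPM in undifferentiated cells (log2 fold change -0.09 ± 0.23, adjusted p = 0.772). Tbx3 also acts in endoderm and heart, and its 4 values all lay between 62.8 and 70.1 CPM.

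Pluripotency genes were lower in differentiated replicate 1 than in replicate 2. This held for 13 of 14 naive and 12 of 12 core genes, with a median gap between the libraries of -1.01 and -0.86 log2 units, against -0.04 over all genes. Summed over the naive list, the level was 201 CPM in differentiated replicate 1 and 457 CPM in replicate 2, against 3286 and 3426 CPM in the undifferentiated libraries, so that replicate 2 kept the larger residue but still lay far below either undifferentiated library.

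The promoter of Nanog is shown because it carries the composite site to which Oct4 and Sox2 are known to bind side by side, and because its gene fell with those of both factors. It comes from RefSeq (GRCm38.p6, the mm10 genome; the first of 2 listed starts of the gene), from 250 bases before to 50 after the start, at chr6:122707239-122707538 on the plus strand, and capitals mark the site, which reads on the opposite strand.
Nanog: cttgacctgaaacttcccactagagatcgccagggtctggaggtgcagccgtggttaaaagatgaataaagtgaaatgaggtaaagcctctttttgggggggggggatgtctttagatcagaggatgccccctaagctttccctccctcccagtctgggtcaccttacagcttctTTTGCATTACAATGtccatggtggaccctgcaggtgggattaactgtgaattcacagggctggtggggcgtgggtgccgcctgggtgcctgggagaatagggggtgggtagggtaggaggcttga
The letters searched were CATTGTNATGCAAA on either strand, and the site begins 75 bases before the start. Of 32851 RefSeq promoters of this length, 2 (0.00609%) hold these letters, both of them Nanog starts. Of 26 genes of the naive and core lists, 16 had a promoter in the table.

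Ranked by the smaller change of the 2 libraries, the 12 largest falls included genes of Nodal signalling and of germ cells. Lefty1, a secreted Nodal inhibitor that Nodal itself induces, had 0 and 0.620 CPM in differentiated cells, against 108 and 119 CPM in undifferentiated cells. With 3 counts against 437, its ratio was 0.00367 (95% interval 0.000754 to 0.0108, counting error only; adjusted p = 0.000296). Its neighbour Lefty2 had 5.31 and 2.27 CPM in differentiated cells, against 110.4 and 121 CPM in undifferentiated cells (log2 fold change -5.05 ± 0.41, adjusted p = 0.000449). Gdf3, a related ligand that signals through the Nodal co-receptor, had 0.443 and 1.24 CPM in differentiated cells, against 80.0 and 60.1 CPM in undifferentiated cells (log2 fold change -6.12 ± 0.47, adjusted p = 0.000415). All 3 of these genes were low in both differentiated libraries. Hormad1, a protein of meiotic chromosome axes, had 0 counts in both differentiated libraries, against 30.4 and 29.0 CPM in undifferentiated cells, and was at least 69.8-fold lower when set against a floor of 3 counts over the group. Morc1, a repressor of transposons in germ cells, had 0.443 and 2.89 CPM in differentiated cells, against 125 and 139 CPM in undifferentiated cells (log2 fold change -6.01 ± 0.50, adjusted p = 0.000482). Cobl, an actin nucleator, had 7.52 and 4.55 CPM in differentiated cells, against 403 and 373 CPM in undifferentiated cells (log2 fold change -6.07 ± 0.30, adjusted p = 0.000198). Nphs1, Mcf2, Nr0b1, Slc27a2 and Rex2 were also among them. In the list of genes of the 2-cell-like state and germ line, 6 of 11 members were tested and all 6 fell and held, but 3 did without undifferentiated replicate 1 and 1 without replicate 2. Smc1b, a meiotic cohesin subunit and the one kept in every fit, had 4.87 and 4.14 CPM in differentiated cells, against 105 and 142 CPM in undifferentiated cells (log2 fold change -4.79 ± 0.32, adjusted p = 0.000297).

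The 12 largest rises, ranked in the same way, included Postn, Igf2 and Acta2. Postn, which encodes the matrix protein periostin of heart valves and mesenchyme, had 3047 and 2062 CPM in differentiated cells, against 9.20 and 11.3 CPM in undifferentiated cells (log2 fold change 7.93 ± 0.35, adjusted p = 0.000198). Igf2, the imprinted fetal growth factor, had 14055 and 5686 CPM in differentiated cells, against 29.7 and 30.7 CPM in undifferentiated cells (log2 fold change 8.35 ± 0.57, adjusted p = 0.000303). Acta2, smooth muscle actin, had 3573 and 2872 CPM in differentiated cells, against 26.2 and 14.7 CPM in undifferentiated cells (log2 fold change 7.34 ± 0.37, adjusted p = 0.000198). For these 3 genes each differentiated library was over every undifferentiated one by a wide margin, although Igf2 itself differed between the differentiated libraries. Prdm6, a regulator of smooth muscle genes, had 141 and 111 CPM in differentiated cells and 0 counts in undifferentiated cells, so it was at least 153-fold higher. Pcsk5, a proprotein convertase that activates TGF-beta family ligands, had 80.5 and 89.5 CPM in differentiated cells, against 0 and 0.420 CPM in undifferentiated cells, where 1 count was seen. The ratio was 329 (95% interval 58.8 to 13010.3, counting error only). Pmp22, a membrane protein best known from myelin, had nearly equal values in the differentiated pair, 562 and 556 CPM, against 5.66 and 6.30 CPM in undifferentiated cells (log2 fold change 6.52 ± 0.25, adjusted p = 0.000198). The others of the 12 largest rises were Zim1, Hand1, Daam2, Tbx20, Capn6 and Col1a1.

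**Figure D2:**
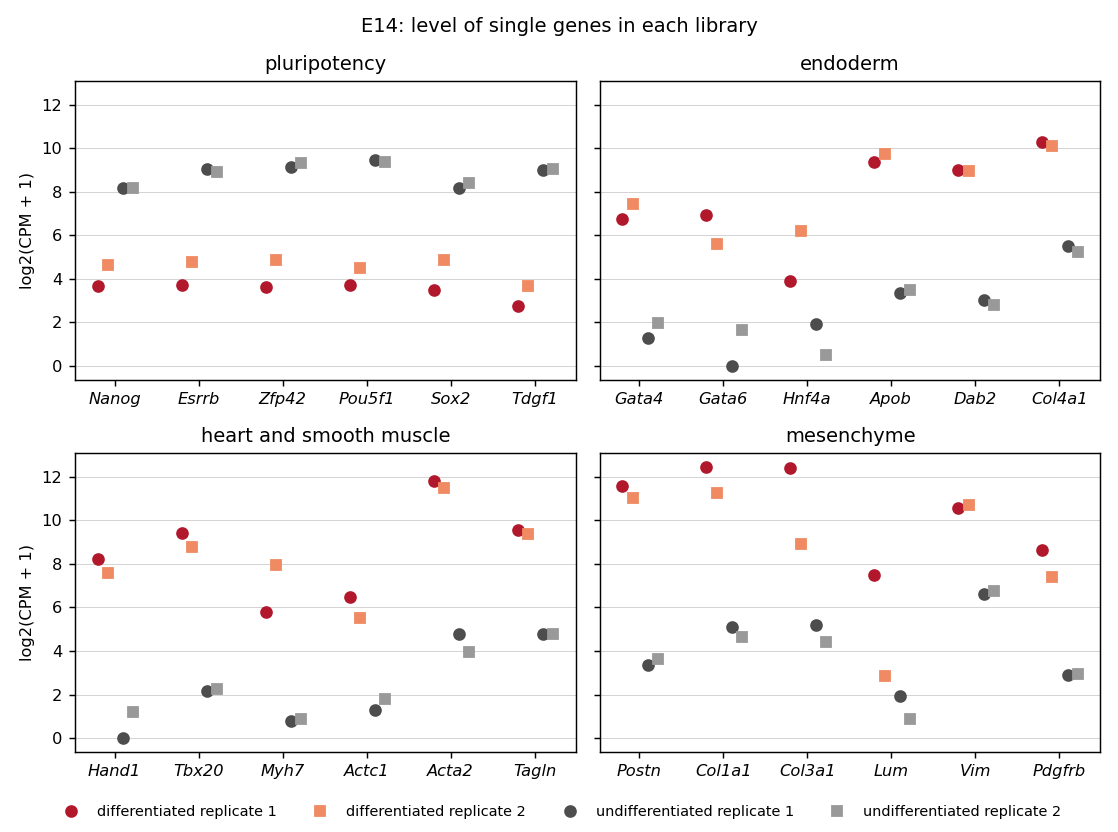
Level of 24 genes in each of the 4 E14 libraries, as log2(CPM + 1), in 4 panels by cell type, with the differentiated libraries left of the undifferentiated ones for each gene. The pluripotency genes are lower and the other genes higher in both differentiated libraries; the widest gap within the differentiated pair is that of Lum, at 180 and 6.20 CPM.

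Endoderm genes rose in both libraries, and 8 of 10 endoderm transcription factors stood higher in replicate 2. Of 10 endoderm transcription factors, 6 were tested, and 5 rose and held, against 22.5% of all genes rising. The count fell without either undifferentiated library, although more members were then tested. Without differentiated replicate 1 both the count and the number of members tested were higher. Gata4, a zinc finger factor of endoderm and heart, had 108 and 173 CPM in differentiated cells, against 1.42 and 2.94 CPM in undifferentiated cells (log2 fold change 5.89 ± 0.45, adjusted p = 0.000398). Gata6, its partner at the head of the primitive endoderm programme, had 119.9 and 48.2 CPM in differentiated cells, against 0 and 2.10 CPM in undifferentiated cells (log2 fold change 5.97 ± 0.81, adjusted p = 0.00211). The 2 factors stood in opposite order in the differentiated libraries. Hnf4a, the nuclear receptor of visceral endoderm and liver, had 14.2 and 72.2 CPM in differentiated cells, against 2.83 and 0.420 CPM in undifferentiated cells (log2 fold change 4.96 ± 1.07, adjusted p = 0.011), and this call was lost without undifferentiated replicate 2 (adjusted p = 0.0935). Sox17, Sox7, Foxa2 and Foxa3 did not pass the filter on low counts; Foxa2, for one, had 4.43 and 14.5 CPM in differentiated cells and 0 counts in undifferentiated cells.

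Of 24 serum and uptake proteins of visceral endoderm, 15 were tested, and 11 rose and held, with a median of 5.29, or 3.66 with the 3 members of 0 undifferentiated counts at their bound. Fewer were called without either undifferentiated library, although more members were then tested. Apob, the lipoprotein carrier that yolk sac endoderm secretes, had 670.0 and 845 CPM in differentiated cells, against 9.20 and 10.1 CPM in undifferentiated cells (log2 fold change 6.28 ± 0.27, adjusted p = 0.000198). Dab2, an endocytic adaptor of extraembryonic endoderm, had 509 and 502 CPM in differentiated cells, against 7.08 and 5.88 CPM in undifferentiated cells (log2 fold change 6.30 ± 0.25, adjusted p = 0.000198). Both stood close together in the differentiated pair and far over the undifferentiated pair. Afp, alpha-fetoprotein, had 73.0 and 208 CPM in differentiated cells, against 0 and 0.420 CPM in undifferentiated cells, where 1 count was seen, a ratio of 625 (95% interval 112 to 24711, counting error only). Ttr, transthyretin, had 59.7 and 132 CPM in differentiated cells and 0 counts in undifferentiated cells, at least 137-fold higher. Afp, Ttr and Rbp4, the retinol carrier (71.7 and 310.2 CPM in differentiated cells, against 0.708 and 1.26 CPM in undifferentiated cells), were each higher in replicate 2. Lrp2, the endocytic receptor megalin, was not called, with 202 and 281 CPM in differentiated cells, against 219 and 228 CPM in undifferentiated cells, and neither was Apoe, with 300.1 and 737 CPM in differentiated cells, against 268 and 238 CPM in undifferentiated cells. Albumin, a marker of later liver, had 0.885 and 1.86 CPM in differentiated cells, against 3.54 and 2.52 CPM in undifferentiated cells, and was not tested.

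Of 14 genes of parietal endoderm and basement membrane, 11 were tested, and all 11 rose and held (median 4.22, or 3.50 with 1 member at its bound), with 7 called without either undifferentiated library. Col4a1 and Col4a2, the paired chains of basement membrane collagen, shared one pattern. Col4a1 had 1264 and 1085 CPM in differentiated cells, against 45.3 and 37.0 CPM in undifferentiated cells (log2 fold change 4.84 ± 0.24, adjusted p = 0.000198), and Col4a2 had 762 and 927 CPM in differentiated cells, against 20.5 and 13.4 CPM in undifferentiated cells (log2 fold change 5.67 ± 0.29, adjusted p = 0.000198). Lama1, the laminin chain of early basement membranes, had 655 and 634 CPM in differentiated cells, against 63.0 and 51.7 CPM in undifferentiated cells (log2 fold change 3.50 ± 0.21, adjusted p = 0.000269). Sparc, a collagen-binding protein abundant in parietal endoderm, had 2061 and 2582 CPM in differentiated cells, against 123 and 125 CPM in undifferentiated cells (log2 fold change 4.22 ± 0.23, adjusted p = 0.000198). Over the tested members the median change was 4.01 in differentiated replicate 1 and 3.46 in replicate 2, and 9 of all 14 members were higher in replicate 1.

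The Afp promoter is shown as an example of the sequences upstream of these secreted proteins, with capitals on a half-site of HNF1, the homeobox factor of endoderm (GTTAAT, searched on either strand), which begins 105 bases before the start (RefSeq, GRCm38.p6, chr5:90490464-90490763, plus strand).
Afp: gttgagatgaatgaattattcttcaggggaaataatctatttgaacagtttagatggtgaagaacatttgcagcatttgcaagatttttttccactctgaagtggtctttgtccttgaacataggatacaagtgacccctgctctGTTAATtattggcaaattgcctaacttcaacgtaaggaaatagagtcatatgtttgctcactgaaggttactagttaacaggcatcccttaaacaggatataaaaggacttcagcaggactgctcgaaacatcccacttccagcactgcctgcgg
Of 34 endoderm genes of both lists, 25 had a promoter in the table and 10 of them (40.0%) held the half-site in at least 1, against 2228 of 27025 genes with a promoter (8.24%). The 10 were Afp, Alb, Apoc2, Apoe, Dab2, F2, Fga, Fgb, Foxa2 and Hnf4a. Among them Apoe was not called, and Alb and Foxa2 were not tested. A match is a description of these letters and not of binding.

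Heart and smooth muscle genes rose in both libraries. Of 26 cardiac genes, 16 were tested, and 14 rose and held (median 4.41). Without either undifferentiated library fewer rises were called among more members tested. Tbx20, a T-box factor of the heart field, had 679 and 439 CPM in differentiated cells, against 3.54 and 3.78 CPM in undifferentiated cells (log2 fold change 7.23 ± 0.37, adjusted p = 0.000198). Hand1, a basic helix-loop-helix factor of heart and extraembryonic mesoderm, had 298 and 190.2 CPM in differentiated cells, against 0 and 1.26 CPM in undifferentiated cells, where 3 counts were seen (ratio 284, 95% interval 97.0 to 1378, counting error only). Actc1, cardiac actin, had 88.5 and 45.3 CPM in differentiated cells, against 1.42 and 2.52 CPM in undifferentiated cells (log2 fold change 4.97 ± 0.54, adjusted p = 0.00103). These 3 genes were higher in replicate 1. So was Tnni1, a troponin, with 75.2 and 57.9 CPM in differentiated cells, against 2.12 and 1.26 CPM in undifferentiated cells (log2 fold change 5.33 ± 0.44, adjusted p = 0.000471). Over the 16 tested members the gap between the libraries went each way in 8. Myh7, the embryonic ventricular myosin, was higher in replicate 2 and had 53.6 and 245 CPM in differentiated cells, against 0.708 and 0.840 CPM in undifferentiated cells, where 3 counts were seen (ratio 233, 95% interval 79.5 to 1130.3, counting error only). The atrial light chain gene Myl7 (not called in every fit) had 15.5 and 51.1 CPM in differentiated cells, against 2.12 and 1.68 CPM in undifferentiated cells. Over the 26 members with counts, 8 stood higher in replicate 1 and 18 in replicate 2. Nkx2-5, a defining factor of heart muscle, was not tested, with 1.33 and 1.65 CPM in differentiated cells, against 0 and 2.10 CPM in undifferentiated cells, and Nppa was at 1.77 and 2.48 CPM in differentiated cells, against 1.42 and 0.420 CPM in undifferentiated cells. Ttn and Actn2, both sarcomere genes, were tested and not called (Ttn had 212 and 442 CPM in differentiated cells, against 205 and 224 CPM in undifferentiated cells).

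All 13 tested of 14 smooth muscle contractile genes rose and held (median 3.58), with 10 and 8 of 14 called without undifferentiated replicates 1 and 2. Tagln, the actin binder SM22, had 753 and 662 CPM in differentiated cells, against 26.2 and 26.5 CPM in undifferentiated cells (log2 fold change 4.75 ± 0.22, adjusted p = 0.000198). Cald1, caldesmon, had 1266 and 1043 CPM in differentiated cells, against 77.8 and 83.6 CPM in undifferentiated cells (log2 fold change 3.84 ± 0.22, adjusted p = 0.000222). Cnn2, a calponin, had 570.0 and 495 CPM in differentiated cells, against 63.7 and 71.8 CPM in undifferentiated cells (log2 fold change 2.97 ± 0.21, adjusted p = 0.000321). These genes were close in the differentiated pair, unlike Myl9, a myosin light chain not called in every fit, with 232 and 41.6 CPM in differentiated cells, against 8.49 and 13.9 CPM in undifferentiated cells. Myocd, the coactivator that drives such genes through serum response factor, had 23.0 and 36.0 CPM in differentiated cells, against 0.708 and 0 CPM in undifferentiated cells, where 1 count was seen (ratio 121, 95% interval 21.5 to 4794, counting error only).

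Serum response factor is known to bind the CArG box, and the promoters of Actc1 and Cnn2 are shown because each holds one. They come from RefSeq (GRCm38.p6), Actc1 at chr2:114052826-114053125 on the minus strand and Cnn2 at chr10:79988350-79988649 on the plus strand, and capitals mark the box, 47 and 56 bases before the start.
Actc1: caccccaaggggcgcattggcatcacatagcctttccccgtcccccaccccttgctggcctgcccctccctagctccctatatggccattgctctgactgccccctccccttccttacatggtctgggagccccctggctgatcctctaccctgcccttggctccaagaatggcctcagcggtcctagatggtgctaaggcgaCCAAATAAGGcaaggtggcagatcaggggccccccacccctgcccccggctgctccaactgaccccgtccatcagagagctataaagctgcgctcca
Cnn2: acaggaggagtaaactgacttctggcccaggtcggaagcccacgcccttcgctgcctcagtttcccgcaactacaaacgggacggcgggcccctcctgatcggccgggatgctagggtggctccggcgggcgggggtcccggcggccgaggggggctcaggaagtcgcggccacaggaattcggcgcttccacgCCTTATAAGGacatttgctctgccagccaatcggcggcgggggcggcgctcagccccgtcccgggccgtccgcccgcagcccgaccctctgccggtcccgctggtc
Of 40 smooth muscle and cardiac genes, 34 had a promoter in the table and 5 (14.7%) held a CArG box in at least 1 of them (Actc1, Cnn2, Myl3, Myl7 and Myl9), against 488 of 27025 genes (1.81%). The box is a palindrome, so the strands give the same matches.

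Mesenchyme and fibrillar matrix genes rose, and more in replicate 1. Of 28 members, 24 were tested, and 23 rose and held, with a median of 5.70, against 17.4% of all genes rising and held. The median change was 5.71 in differentiated replicate 1 and 4.08 in replicate 2, and 25 of 28 members stood higher in replicate 1. Col5a1, a fibril-starting collagen, had 3179 and 1702 CPM in differentiated cells, against 49.5 and 41.6 CPM in undifferentiated cells (log2 fold change 5.75 ± 0.39, adjusted p = 0.000303). Vim, the intermediate filament vimentin, had 1541 and 1683 CPM in differentiated cells, against 96.9 and 107 CPM in undifferentiated cells (log2 fold change 3.98 ± 0.21, adjusted p = 0.000198). Mmp2, a gelatinase of mesenchyme, had 449.6 and 668 CPM in differentiated cells, against 30.4 and 26.0 CPM in undifferentiated cells (log2 fold change 4.32 ± 0.29, adjusted p = 0.000297). Vim and Mmp2 went against the gap, being somewhat higher in replicate 2. Of the fibrillar collagens, Col1a1 had 5657 and 2422 CPM in differentiated cells, against 33.3 and 24.4 CPM in undifferentiated cells (log2 fold change 7.15 ± 0.53, adjusted p = 0.000364), and Col3a1 had 5352 and 476 CPM in differentiated cells, against 35.4 and 20.2 CPM in undifferentiated cells (log2 fold change 6.75 ± 1.19, adjusted p = 0.00524, not kept in every fit). The list's fall was Thy1, a surface protein that stem cells also carry, with 0 and 1.03 CPM in differentiated cells, against 7.78 and 8.40 CPM in undifferentiated cells (log2 fold change -3.53 ± 0.87, adjusted p = 0.0175, lost without either undifferentiated library). Among transcription factors of the epithelial to mesenchymal transition, Zeb2 had 330.2 and 97.6 CPM in differentiated cells, against 2.83 and 2.94 CPM in undifferentiated cells (log2 fold change 6.17 ± 0.75, adjusted p = 0.00143), and Snai1 and Snai2 also rose. These 3 factors were higher in replicate 1.

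Epithelial genes split. Of 12 members, 4 rose, 2 fell and 6 were not called, against 22.5% of all genes rising and 19.3% falling. The 4 rises were keratins: Krt8 had 345 and 522 CPM in differentiated cells, against 21.2 and 26.5 CPM in undifferentiated cells (log2 fold change 4.17 ± 0.30, adjusted p = 0.000347), and Krt18, its partner, had 335 and 895 CPM in differentiated cells, against 34.0 and 36.5 CPM in undifferentiated cells (log2 fold change 4.12 ± 0.49, adjusted p = 0.00133). The 2 falls were the adhesion genes Cdh1 (E-cadherin) and Epcam. Cdh1 had 69.9 and 275 CPM in differentiated cells, against 632 and 551 CPM in undifferentiated cells (log2 fold change -1.76 ± 0.55, adjusted p = 0.0398), and Epcam had 30.5 and 101 CPM in differentiated cells, against 228 and 216 CPM in undifferentiated cells (log2 fold change -1.73 ± 0.49, adjusted p = 0.0282). Neither fall was called without undifferentiated replicate 1 or 2, where the list gave 3 rises and 0 falls; without differentiated replicate 1 it gave 7 rises and 2 falls, and without replicate 2 it gave 4 rises and 6 falls. All 12 members stood higher in differentiated replicate 2 than in replicate 1, by a median of 1.83 log2 units. For Cldn7, a tight junction protein, the 2 differentiated libraries lay on either side of the undifferentiated pair, at 6.64 and 58.7 CPM in differentiated cells, against 20.5 and 12.6 CPM in undifferentiated cells.

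**Figure D3:**
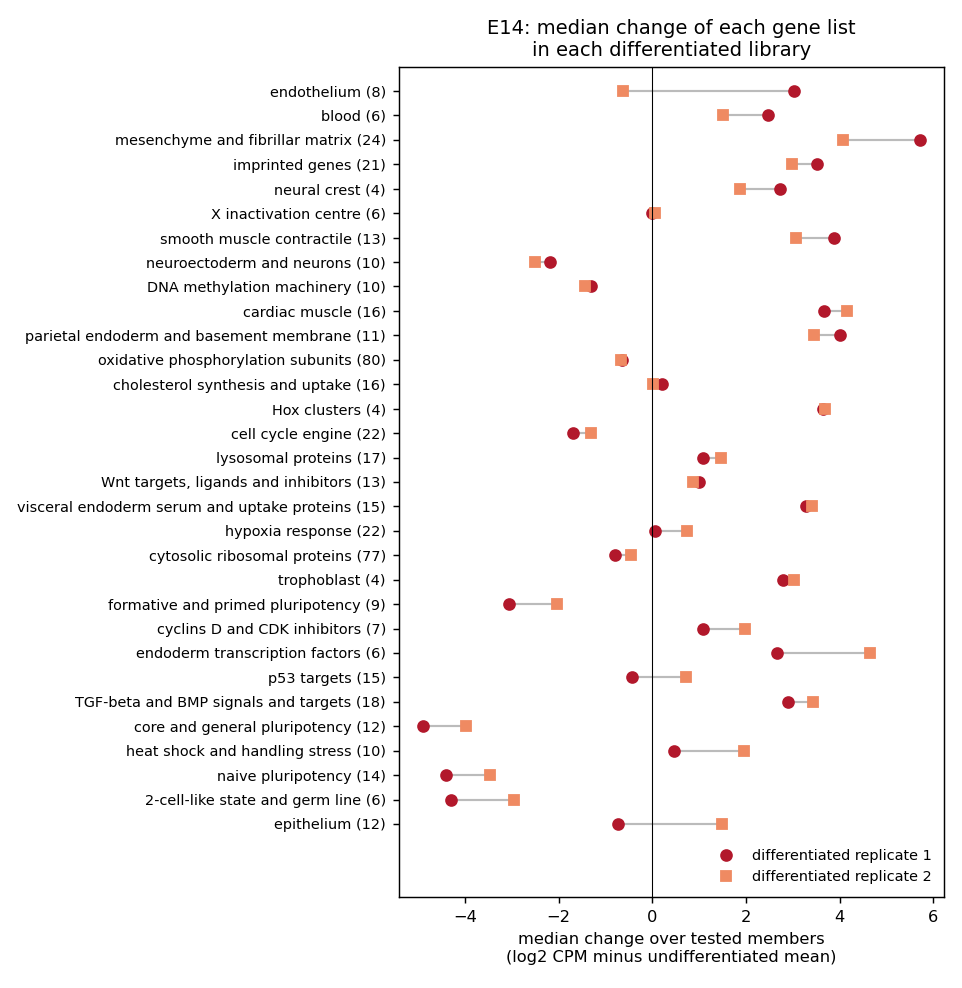
Median change of each gene list with at least 4 tested members (number in brackets) in each differentiated E14 library, as log2 CPM minus the undifferentiated mean, with lists sorted by the median gap between the libraries. Endothelium and mesenchyme are higher in replicate 1 (gap 2.17 and 0.99) and epithelium in replicate 2 (gap -1.83); for endothelium the medians are 3.03 and -0.62.

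Vessel, blood and Hox genes were mostly far higher in differentiated replicate 1 than in replicate 2. Of 15 endothelial genes, 8 were tested and 3 rose, 2 of which held. Without replicate 2 more members were tested and more rose, and without replicate 1 falls were called beside the rises. The 2 that held were receptors of VEGF. Flt1 had 96.0 and 240.5 CPM in differentiated cells, against 4.95 and 2.94 CPM in undifferentiated cells (log2 fold change 5.48 ± 0.59, adjusted p = 0.000983), and was the member higher in replicate 2, whereas Kdr had 212 and 54.2 CPM in differentiated cells, against 0.708 and 0.840 CPM in undifferentiated cells, where 3 counts were seen (ratio 132, 95% interval 45.1 to 643, counting error only). Kdr and the other members, 14 in all, were higher in replicate 1. Cdh5, the cadherin that defines endothelium, had 106 and 3.52 CPM in differentiated cells and 0 counts in undifferentiated cells, and Tie1, a receptor of the same cells, had 36.7 and 1.45 CPM in differentiated cells, against 4.25 and 1.26 CPM in undifferentiated cells (not called). Over the 8 tested members the median change was 3.03 in replicate 1 and -0.62 in replicate 2. Pecam1, a vessel marker that stem cells also express, was not called, with 75.2 and 13.9 CPM in differentiated cells, against 137 and 131 CPM in undifferentiated cells.

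Blood genes showed the same gap. Of 18 members, 6 were tested and 4 rose and held; there were 5 rises among 6 tested without differentiated replicate 1, 10 rises and 1 fall among 11 tested without replicate 2, and 1 and 2 rises without undifferentiated replicates 1 and 2. The embryonic globin gene Hbb-bh1 had 199 and 5.17 CPM in differentiated cells, against 0.708 and 1.26 CPM in undifferentiated cells (log2 fold change 6.52 ± 1.93, adjusted p = 0.0335, lost without either undifferentiated library). Its partner Hba-x had 172 and 1.65 CPM in differentiated cells, against 0.708 and 0.840 CPM in undifferentiated cells, and was not tested. The adult globin gene Hba-a1 and the microglial gene C1qa had 0 counts in all 4 libraries. Runx1, a factor of blood formation that mesenchyme also uses, had 98.2 and 40.7 CPM in differentiated cells, against 0 and 2.52 CPM in undifferentiated cells (log2 fold change 5.45 ± 0.81, adjusted p = 0.00291), and was high in both differentiated libraries. Ptprc, the pan-leukocyte antigen CD45, had 0.443 and 0 CPM in differentiated cells and 0 counts in undifferentiated cells.

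Of 33 Hox genes, which record position along the body axis, 4 were tested, and the 4 rose and held. The count was 4 of 4 tested without differentiated replicate 1, 15 of 15 without replicate 2, and 1 of 18 without either undifferentiated library. Hoxb2, the one kept in every fit, had 18.6 and 10.5 CPM in differentiated cells and 0 counts in undifferentiated cells, at least 16.6-fold higher. Hoxb3 and Hoxb4 were alike in the differentiated libraries, at 8.41 and 8.27 CPM and 8.41 and 9.30 CPM, with 0 counts in undifferentiated cells. Other Hox genes were seen mainly in replicate 1: Hoxc10 had 32.3 and 0.827 CPM, Hoxc5 had 33.6 and 0.207 CPM and Hoxa10 had 17.7 and 0.207 CPM in differentiated cells, against 0 to 0.840 CPM in undifferentiated cells. Summed over the clusters the level was 277 CPM in differentiated replicate 1 and 63.5 CPM in replicate 2, against 2.83 and 5.46 CPM in undifferentiated cells, and 26 of the 30 genes with counts in differentiated cells were higher in replicate 1.

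**Figure D4:**
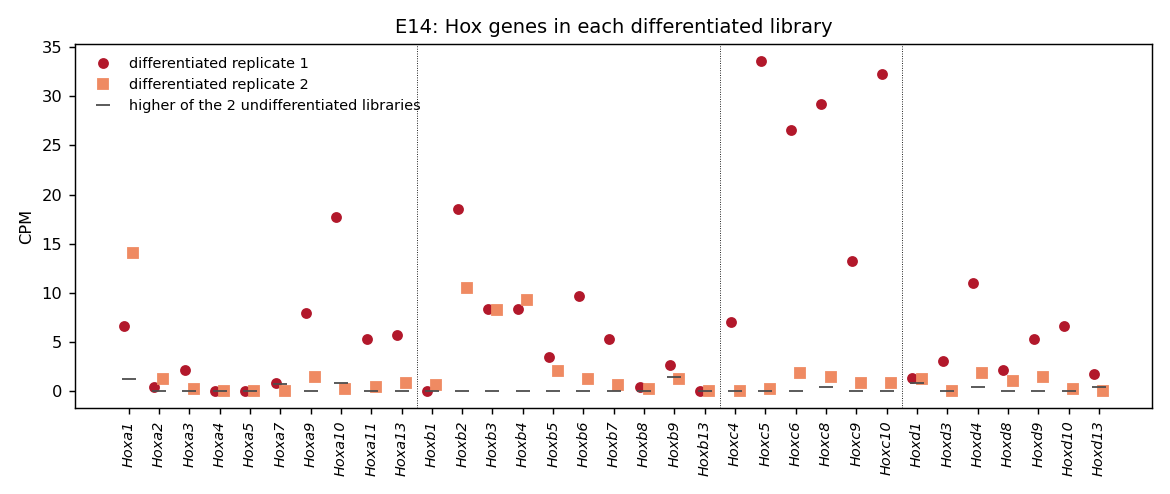
CPM of 33 Hox genes in each differentiated E14 library, in cluster order with dotted lines between clusters, and the higher of the 2 undifferentiated libraries as a dash. Replicate 1 reaches 33.6 CPM at Hoxc5 where replicate 2 has 0.207 CPM, while Hoxb2 to Hoxb4 have counts in both.

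Genes with the widest gap in each direction are given as a description, with no test. Higher in replicate 1 were Hbb-bh1, Lum, Frem1, Adam12, Hmcn1, Tie1, Sema6d and Plvap. Lum, the proteoglycan lumican of connective tissue, had 180.1 and 6.20 CPM in differentiated cells, against 2.83 and 0.840 CPM in undifferentiated cells, and Frem1, a matrix protein at the edge of epithelia, had 401 and 17.6 CPM in differentiated cells, against 9.20 and 4.20 CPM in undifferentiated cells. Among those higher in replicate 2 were Grik3, Mmp17, Ripk4, Cldn7, Gcnt4, Col20a1 and Mapk4. Ripk4, a kinase of epithelial differentiation, had 7.52 and 66.4 CPM in differentiated cells, against 19.8 and 13.4 CPM in undifferentiated cells. Over all tested genes, 153 were more than 2 log2 units higher in replicate 1 and 195 in replicate 2, and the 5th to 95th percentile of the gap ran from -1.31 to 1.23.

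Neural, primitive streak and trophoblast genes changed less uniformly. Of 21 neuroectoderm and neuron genes, 10 were tested, and 6 fell and 3 rose; without either undifferentiated library the counts were 2 and 2. Stmn2, a microtubule regulator of neurons that stem cells also express, had 22.6 and 33.5 CPM in differentiated cells, against 212 and 196 CPM in undifferentiated cells (log2 fold change -2.84 ± 0.26, adjusted p = 0.000633). Sox11, a factor of neural and mesenchymal progenitors, went the other way, with 225 and 170.2 CPM in differentiated cells, against 33.3 and 30.2 CPM in undifferentiated cells (log2 fold change 2.64 ± 0.25, adjusted p = 0.00065), as did Ncam1, a cell adhesion gene of nerve and mesoderm, with 414 and 196 CPM in differentiated cells, against 27.6 and 24.4 CPM in undifferentiated cells (log2 fold change 3.55 ± 0.40, adjusted p = 0.00113). Pax6, Sox1 and Dcx, which define neural cells, had 0 counts in both differentiated libraries. Of 13 primitive streak genes only Tbx6 and Eomes were tested and neither was called; T (brachyury), the marker of early mesoderm, had 0 counts in both differentiated libraries, against 0.708 and 1.68 CPM in undifferentiated cells. Of 12 trophoblast genes, 4 were tested, and 3 rose and 1 fell (1 rise and 0 falls without either undifferentiated library). Gata3, a factor of trophoblast and other epithelia, had 20.4 and 29.4 CPM in differentiated cells, against 0.708 and 0 CPM in undifferentiated cells, where 1 count was seen (ratio 101, 95% interval 17.8 to 3992, counting error only), while the placental genes Tpbpa and Prl2c2 had 0 counts throughout. Of 11 genes of formative and primed pluripotency, 9 were tested, and 5 fell and 1 rose; 2 fell without either undifferentiated library, and 8 fell without either differentiated one. Zic2, a zinc finger factor of the primed state, had 2.66 and 1.65 CPM in differentiated cells, against 42.5 and 51.7 CPM in undifferentiated cells (log2 fold change -4.50 ± 0.42, adjusted p = 0.000633).

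Most signalling genes of the TGF-beta and BMP family rose, while the Nodal inhibitors fell. Of 20 members, 18 were tested, and 14 rose and 2 fell, all held; 9 rose without undifferentiated replicate 2. The 2 falls were Lefty1 and Lefty2, given above. Tgfb2, a ligand of heart cushions and mesenchyme, had 218 and 199.5 CPM in differentiated cells, against 3.54 and 3.78 CPM in undifferentiated cells (log2 fold change 5.81 ± 0.29, adjusted p = 0.000198). Tgfbi, a matrix protein that TGF-beta induces, had 624 and 380.5 CPM in differentiated cells, against 12.7 and 10.5 CPM in undifferentiated cells (log2 fold change 5.45 ± 0.35, adjusted p = 0.000296). Bmp4, the ligand of early mesoderm, had 186 and 187 CPM in differentiated cells, against 14.9 and 18.1 CPM in undifferentiated cells (log2 fold change 3.49 ± 0.24, adjusted p = 0.000321). Bmp4 and Tgfb2 were nearly equal in the differentiated libraries, while the BMP target Id1, not called in every fit, was not, at 14.2 and 92.2 CPM in differentiated cells, against 4.95 and 6.72 CPM in undifferentiated cells. Of 18 genes of the Wnt pathway, 13 were tested, and 6 rose and 3 fell; without undifferentiated replicate 1 or 2 the counts were 6 and 0, and without differentiated replicate 1 they were 10 and 5. The 6 rises were ligands and inhibitors, among them Wnt5a, a ligand of the branch that does not act through beta-catenin, with 52.2 and 83.5 CPM in differentiated cells, against 1.42 and 1.68 CPM in undifferentiated cells (log2 fold change 5.40 ± 0.47, adjusted p = 0.000535), and Frzb, a secreted inhibitor, with 54.4 and 33.3 CPM in differentiated cells, against 0.708 and 0.420 CPM in undifferentiated cells, where 2 counts were seen (ratio 75.9, 95% interval 20.8 to 630.0, counting error only). Axin2, a standard target of beta-catenin, was not called, with 22.1 and 37.4 CPM in differentiated cells, against 29.7 and 26.9 CPM in undifferentiated cells. Nkd1, an inhibitor that is also a target, rose, with 66.4 and 50.9 CPM in differentiated cells, against 6.37 and 5.04 CPM in undifferentiated cells. Its log2 fold change was 3.37 ± 0.36 (adjusted p = 0.000949). The inhibitor Dkk1 rose as well, so targets of the pathway did not move alike.

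Of 22 genes of the cell cycle engine, 13 fell and 11 held (median -1.21), against 19.3% of all genes falling and 13.6% falling and held; 18 and 20 fell without differentiated replicates 1 and 2, and 10 without either undifferentiated library. The 6 subunits of the replicative helicase all fell, and Mcm6 had 112 and 103 CPM in differentiated cells, against 584 and 617 CPM in undifferentiated cells (log2 fold change -2.49 ± 0.19, adjusted p = 0.000412). Ccne1, the cyclin that opens S phase, had 21.2 and 24.4 CPM in differentiated cells, against 154 and 158 CPM in undifferentiated cells (log2 fold change -2.76 ± 0.23, adjusted p = 0.000487). Pcna, the replication clamp, had 56.6 and 56.5 CPM in differentiated cells, against 245 and 250.3 CPM in undifferentiated cells (log2 fold change -2.13 ± 0.20, adjusted p = 0.000617). Mki67, a marker of dividing cells, was not called, with 1166 and 950.1 CPM in differentiated cells, against 1202 and 1395 CPM in undifferentiated cells, and neither was Cdk1, the mitotic kinase, with 88.1 and 184 CPM in differentiated cells, against 153 and 157 CPM in undifferentiated cells. Of 9 D-type cyclins and CDK inhibitors, 7 were tested, and 6 rose and 1 fell (3 and 0 without either undifferentiated library). Ccnd2 rose, with 254 and 657 CPM in differentiated cells, against 39.6 and 46.6 CPM in undifferentiated cells (log2 fold change 3.40 ± 0.46, adjusted p = 0.00213), and Ccnd1 was the fall, with 62.0 and 29.6 CPM in differentiated cells, against 169.8 and 155 CPM in undifferentiated cells (log2 fold change -1.85 ± 0.36, adjusted p = 0.00748, not kept in every fit). Cdkn1c, the imprinted CDK inhibitor p57, had 189 and 197 CPM in differentiated cells, against 14.2 and 23.5 CPM in undifferentiated cells (log2 fold change 3.32 ± 0.29, adjusted p = 0.000535).

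Genes for ribosomes and respiration shifted by small amounts. Of 81 cytosolic ribosomal protein genes, 77 were tested and 34 fell, against 19.3% of all genes, and 8 held, below the 13.6% of all genes, with a median of -0.60. The count rose to 47 and 66 without differentiated replicates 1 and 2 and dropped to 5 and 2 without undifferentiated replicates 1 and 2. Their summed level was 27260 and 35168 CPM in differentiated cells, against 47644.5 and 47442.5 CPM in undifferentiated cells. Of 86 genes taken by a name pattern for subunits of oxidative phosphorylation, 80 were tested and 24 fell (median -0.66), against 19.3% of all genes. In all, 10 fell and held, a share no higher than the 13.6% of all genes. The pattern also admits assembly factors (names in Ndufaf), which are not subunits. The count of falls was 46 and 41 without the differentiated and 4 and 2 without the undifferentiated replicates. The share of counts taken by Rn45s moved with the groups; a fit that kept Rn45s and Lars2 called 35 ribosomal and 29 respiratory falls.

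Differentiated cells had been kept in 7.5% oxygen, and the labels give no oxygen level for undifferentiated cells. Oxygen and differentiation therefore cannot be told apart here. Of 24 genes of the hypoxia response 22 were tested, with 9 rises, 1 fall and 12 not called (median 0.37), against 22.5% of all genes rising and 19.3% falling. Without differentiated replicate 1 there were 13 rises and 4 falls, and without replicate 2 there were 9 and 8; without undifferentiated replicates there were 7 rises and 0 falls. P4ha2 and P4ha1, prolyl hydroxylases of collagen, rose: P4ha2 had 202 and 233 CPM in differentiated cells, against 18.4 and 16.0 CPM in undifferentiated cells (log2 fold change 3.67 ± 0.24, adjusted p = 0.000297), and P4ha1 had 593 and 990.3 CPM in differentiated cells, against 103 and 108 CPM in undifferentiated cells (log2 fold change 2.90 ± 0.29, adjusted p = 0.000779). Slc2a1, a glucose transporter, had 1712 and 1787 CPM in differentiated cells, against 473 and 386 CPM in undifferentiated cells (log2 fold change 2.03 ± 0.21, adjusted p = 0.000837). The glycolytic enzymes Ldha, Pgk1, Aldoa and Hk2 were not called, and Ldha had 592 and 683 CPM in differentiated cells, against 892 and 892 CPM in undifferentiated cells. Pdk1, the kinase that restrains pyruvate entry to mitochondria, was the fall, with 115 and 92.0 CPM in differentiated cells, against 231 and 242 CPM in undifferentiated cells (log2 fold change -1.20 ± 0.21, adjusted p = 0.00503, not kept in every fit).

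Lysosomal, cholesterol, p53 and stress genes were also followed. Of 17 lysosomal proteins, 13 rose and 1 fell (3 and 2 rose without undifferentiated replicates 1 and 2); Cd63, a membrane protein of late endosomes, had 117 and 165 CPM in differentiated cells, against 23.4 and 16.4 CPM in undifferentiated cells (log2 fold change 2.85 ± 0.31, adjusted p = 0.000985). Of 16 genes of cholesterol synthesis and uptake, 3 rose and 13 were not called, a share below the 22.5% of all genes that rose; Sc5d was among the rises, and 1 rose without either undifferentiated library. Of 15 p53 targets, 4 rose and 1 fell, against 22.5% and 19.3% of all genes. None of the 5 was called without either undifferentiated library, and 14 of the targets stood higher in differentiated replicate 2. Of the immediate early genes, Jun had 119 and 166 CPM in differentiated cells, against 10.6 and 3.78 CPM in undifferentiated cells (log2 fold change 4.42 ± 0.46, adjusted p = 0.000873), and Fos had 23.0 and 82.7 CPM in differentiated cells, against 2.12 and 4.62 CPM in undifferentiated cells (log2 fold change 3.89 ± 0.74, adjusted p = 0.00715, lost without undifferentiated replicate 1). Of 13 such stress genes all stood higher in replicate 2, with 5 rises and 1 fall among 10 tested. The fall was Hspb1, not kept in every fit, and fewer rises were called without either undifferentiated library.

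Among 11 genes of the DNA methylation machinery, 10 were tested, and 7 fell and 1 rose (3 and 1 without either undifferentiated library). Tet1, the oxidase of methylated cytosine in stem cells, had 79.7 and 73.4 CPM in differentiated cells, against 1045 and 1059 CPM in undifferentiated cells (log2 fold change -3.78 ± 0.20, adjusted p = 0.000198). Its relative Tet3 went the other way, with 173 and 106 CPM in differentiated cells, against 14.9 and 12.6 CPM in undifferentiated cells (log2 fold change 3.35 ± 0.34, adjusted p = 0.000815). Dnmt3b, a de novo methyltransferase, had 52.7 and 68.9 CPM in differentiated cells, against 393 and 413 CPM in undifferentiated cells (log2 fold change -2.72 ± 0.22, adjusted p = 0.000462), and Uhrf1, which guides maintenance methylation, had 132 and 104 CPM in differentiated cells, against 553 and 449.8 CPM in undifferentiated cells (log2 fold change -2.09 ± 0.22, adjusted p = 0.000952). In each of these the 2 differentiated libraries were on the same side of both undifferentiated ones.

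Imprinted genes, which are expressed from the maternal or the paternal copy alone, mostly rose. Of 24 members, 21 were tested, 17 rose and held (median 3.09) and 4 were not called, and 15 and 14 rose without undifferentiated replicates 1 and 2. Both parental classes were among them. Of the paternally expressed genes, Peg10, a placental gene of retroviral origin, had 4324 and 3187 CPM in differentiated cells, against 284 and 283 CPM in undifferentiated cells (log2 fold change 3.73 ± 0.25, adjusted p = 0.000297), and Peg3, a zinc finger factor, had 4592 and 1994 CPM in differentiated cells, against 168 and 133 CPM in undifferentiated cells (log2 fold change 4.46 ± 0.44, adjusted p = 0.000777). Of the maternally expressed genes, Igf2r, the receptor that clears IGF2, had 4062 and 3121 CPM in differentiated cells, against 276 and 252 CPM in undifferentiated cells (log2 fold change 3.77 ± 0.24, adjusted p = 0.000296). Grb10, an adaptor that limits growth signalling, had 2026 and 1268 CPM in differentiated cells, against 363 and 353 CPM in undifferentiated cells (log2 fold change 2.20 ± 0.27, adjusted p = 0.00149). H19, the noncoding RNA that shares a control region with Igf2, had 251 and 314 CPM in differentiated cells, against 62.3 and 22.3 CPM in undifferentiated cells (log2 fold change 2.78 ± 0.45, adjusted p = 0.00384). H19 thus rose far less than its neighbour Igf2 in the same libraries. Reads of Igf2r and of Airn, which runs antisense through it, cannot be told apart where they overlap, since the library type as described does not mark strand. Airn had 80.5 and 47.4 CPM in differentiated cells, against 0.708 and 2.10 CPM in undifferentiated cells, and rose. The 4 members not called were Mirg, Phlda2, Zrsr1 and Kcnq1ot1.

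Xist, the RNA that silences an X chromosome in female cells, was present in undifferentiated male cells and fell. It had 11.9 and 6.20 CPM in differentiated cells, against 101 and 96.6 CPM in undifferentiated cells (log2 fold change -3.50 ± 0.36, adjusted p = 0.000866). Tsix, its antisense repressor, had 0.885 and 0.620 CPM in differentiated cells, against 9.20 and 9.66 CPM in undifferentiated cells (log2 fold change -3.64 ± 0.65, adjusted p = 0.00553), a call lost without either undifferentiated library (adjusted p up to 0.161); reads of the pair cannot be told apart where they overlap. Rlim, the ubiquitin ligase gene that the series is about, was not called, with 515 and 530.0 CPM in differentiated cells, against 403 and 521 CPM in undifferentiated cells (log2 fold change 0.18 ± 0.20, adjusted p = 0.511). Male-specific genes of the Y chromosome (Ddx3y, Eif2s3y and Uty) were present throughout and none was called, at 32.3 to 48.2 CPM in differentiated cells, against 23.4 to 46.6 CPM in undifferentiated cells; without differentiated replicate 1, 2 of them rose, and without replicate 2, 1 did.

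Few genes were called as changing differently in E14 and in a female line. A difference that was not called does not show that the lines changed alike. Each female line had about as many changes of its own, with 50.1% of genes called in Pgk12.1 and 49.4% in the RlimKO-labelled line. In the model of all 12 libraries, the change in E14 minus that in Pgk12.1 was called for 168 of 12417 genes (1.35%), 80 positive (0.644%) and 88 negative (0.709%), and the change in E14 minus that in the RlimKO-labelled line for 315 (2.54%), 188 positive (1.51%) and 127 negative (1.02%). At unadjusted p below 0.05 there were 1906 and 2235. Both comparisons use the same E14 libraries, so their overlap is not given. The counts turned on the differentiated E14 pair: without its replicate 1 they were 1842 and 2044, without replicate 2 they were 1249 and 1485, and models of only the 8 libraries compared called 22 and 42. Without any of the other 6 libraries of a comparison the counts lay between 15 and 39 for Pgk12.1 and between 46 and 104 for the RlimKO-labelled line. The split also moved with which genes were kept. With Rn45s and Lars2 kept, the share of positive calls was 36.5% for Pgk12.1 and 41.9% for the RlimKO-labelled line, against 47.6% and 59.7% without them. With RLE scaling in place of TMM it was 45.1% and 53.7%. Line, sex and single culture cannot be told apart in these differences. Against the RlimKO-labelled line, the genotype that its label names cannot be told apart from them either. The model of 12 libraries gives each gene 1 spread for all groups. The chi-square per degree of freedom was 24.8 in differentiated E14, against 1.85 to 2.32 in the other groups. The SE and p-values of these differences may therefore be too small. Unless the text says otherwise, the differences that follow were called in all 15 alternative fits. These include the 8 that left out a library and the 8-library model. Apart from Xist, Grb10, Zim1 and Rcsd1, the genes were chosen for their differences after the values were seen.

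The imprinted genes Igf2r, Grb10 and H19 behaved differently in E14 from both female lines. CPM here are scaled over 12 libraries. Igf2r had 4064 and 3122 CPM in differentiated E14, against 276 and 252 CPM in undifferentiated E14; in Pgk12.1 it had 124 and 133 CPM in differentiated cells, against 195 and 176 CPM in undifferentiated cells, and in the RlimKO-labelled line 72.0 and 67.5 CPM in differentiated cells, against 217 and 197 CPM in undifferentiated cells. The change in E14 exceeded that in Pgk12.1 by 4.30 ± 0.23 (adjusted p = 7.29e-08) and that in the RlimKO-labelled line by 5.34 ± 0.24 (adjusted p = 1.18e-08). Igf2r thus rose in E14 and fell in both female lines, with changes of -0.53 (adjusted p = 0.0138) in Pgk12.1 and -1.57 (adjusted p = 4.46e-06) in the RlimKO-labelled line. Grb10 had 47.2 and 53.3 CPM in differentiated Pgk12.1, against 150.5 and 135 CPM in the undifferentiated line, and 5.92 and 8.32 CPM in the differentiated RlimKO-labelled line, against 148 and 128 CPM in the undifferentiated one. Its change in E14 exceeded these by 3.71 ± 0.29 (adjusted p = 1.21e-05) and 6.39 ± 0.35 (adjusted p = 1.01e-07). H19 lay the other way. It reached 12066 and 13109.8 CPM in differentiated Pgk12.1, against 47.7 and 19.8 CPM in the undifferentiated line, and 10456 and 8387 CPM in the differentiated RlimKO-labelled line, against 4.72 and 25.7 CPM in the undifferentiated one, so the E14 change differed by -5.75 ± 0.61 (adjusted p = 0.00039) and -6.34 ± 0.65 (adjusted p = 0.0002). Of 21 tested imprinted genes, 5 differed from Pgk12.1 and 6 from the RlimKO-labelled line. For Meg3 and Peg3 no difference was called: for Meg3, a maternally expressed noncoding RNA, the changes were 3.18 in E14, 3.17 in Pgk12.1 and 2.83 in the RlimKO-labelled line, and for Peg3 they were 4.46, 4.85 and 5.01.

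**Figure D5:**
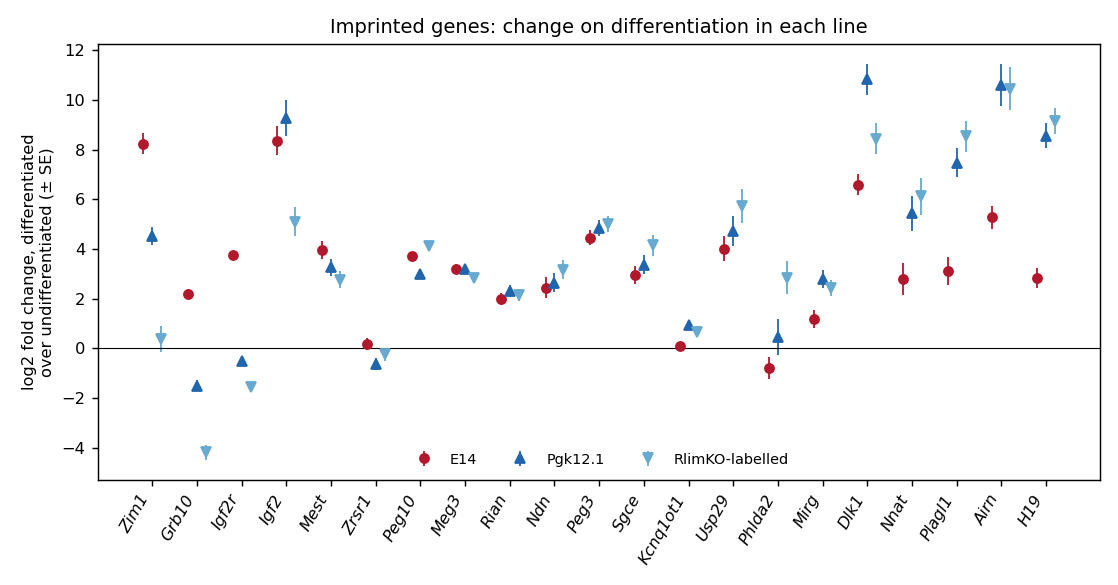
Log2 fold change on differentiation (± SE, model of 12 libraries) of 21 imprinted genes in E14, Pgk12.1 and the RlimKO-labelled line. Igf2r and Grb10 are above 0 in E14 and below 0 in both female lines, H19 is 2.82 in E14 against 8.56 and 9.15, and Meg3 is 3.18 in E14 against 3.17 and 2.83.

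A few other genes differed between E14 and a female line in every fit. Against Pgk12.1, Tdgf1 fell further in E14 (difference -2.40 ± 0.30, adjusted p = 0.00137), with 54.5 and 58.8 CPM left in differentiated Pgk12.1, against 628 and 554 CPM in the undifferentiated line. Rcsd1, an actin capping regulator, had 37.2 and 52.9 CPM in differentiated E14, against 1.42 and 0.420 CPM in undifferentiated E14, and 45.0 and 47.7 CPM in differentiated Pgk12.1, against 35.0 and 25.4 CPM in the undifferentiated line (difference 5.10 ± 0.59, adjusted p = 0.000698). The 2 lines were thus alike after differentiation and apart before it. Rcsd1 differed from the RlimKO-labelled line as well (3.14 ± 0.73, adjusted p = 0.0365), though not in every fit. Against the RlimKO-labelled line, Zim1, an imprinted zinc finger gene next to Peg3, had 383 and 303 CPM in differentiated E14, against 2.13 and 0.420 CPM in undifferentiated E14, and 10.8 and 5.09 CPM in the differentiated RlimKO-labelled line, against 7.08 and 4.28 CPM in the undifferentiated one (difference 7.87 ± 0.89, adjusted p = 0.000547). Mcm6 fell further in E14 (difference -1.21 ± 0.19, adjusted p = 0.00623), and Zim1 differed from Pgk12.1 as well (3.72 ± 0.76, adjusted p = 0.0261), though not in every fit. Xist had 101 and 96.6 CPM in undifferentiated E14, against 232 and 182 CPM in undifferentiated Pgk12.1 and 292 and 318 CPM in the undifferentiated RlimKO-labelled line. It fell in E14 and rose in both female lines, with differences of -6.89 ± 0.30 (adjusted p = 1.16e-08) against Pgk12.1 and -6.34 ± 0.30 (adjusted p = 1.66e-08) against the RlimKO-labelled line. Reads of Xist and Tsix cannot be told apart where they overlap, so some of the reads counted for Xist may be Tsix.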

How the data were processed

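RNA was measured in 12 libraries of 3 mouse stem cell lines, made with template-switching reverse transcription, PCR and tagmentation, per the labels' protocols, which name no molecular identifiers. The deposited values are raw read counts per gene symbol for 23336 genes; the authors aligned reads to mm10 and counted them, and TopHat2 2.0.12 and HTSeq 0.6.1p1 are named in the submitters' processing notes. The 5 summary lines of the table, Rn45s and Lars2 were left out. The 4 E14 libraries were fitted in edgeR 4.0.16 (R 4.3.3) with TMM scaling, filterByExpr and the quasi-likelihood F test, and p-values were Benjamini-Hochberg adjusted over 11976 genes; SE is the log2 fold change over the square root of F. Log2 CPM use a prior count of 2. Differences between lines are interaction contrasts of a model of 12 libraries (12417 genes). Intervals of ratios cover 95% and, like the floor of 3 counts over a group, counting error only, since PCR reads are not independent molecules. The steps were checked on simulated data.

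Members and lists (33 lists, 665 of 666 members in the table) were chosen with earlier results of these data known. Named genes were the 12 rises and 12 falls with the largest smaller-of-2-libraries change among genes held in both whose higher group averaged 10 CPM or more, up to 4 members of each list with the smallest p, the 8 widest gaps each way between the differentiated libraries (at least 20 CPM in the higher one), Xist, Tsix, Rlim and the Y-linked genes, and the 4 largest differences each way against each female line; predicted genes and pseudogenes were left out. Alternatives were DESeq2 1.42.0, RLE scaling, other filters, other models, a fold threshold and leaving out each library. Promoter sequences were read from a RefSeq table of GRCm38.p6. Some genes that the naming rule picked are not reported here.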

Additional observations from a re-analysis of the deposited data

Results flagged for a closer look

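Each result here is flagged because the change on differentiation differed between E14 and a female line by a test of the difference itself: 168 genes against Pgk12.1 and 315 against the RlimKO-labelled line. All values are differences of log2 fold changes, E14 minus female line, from edgeR's quasi-likelihood test of 12 libraries. Against Pgk12.1, Xist (-6.89) and Rcsd1 (5.10) were called in all 15 alternative fits. Against the RlimKO-labelled line, Zim1 (7.87), Grb10 (6.39) and Xist (-6.34) were.

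The other differences were lost in 4 or more of the 15 alternative fits. Efhc2 (7.38 ± 1.16, adjusted p = 0.0107) had 0 and 2.07 CPM in differentiated E14, against 1.42 and 1.68 CPM in undifferentiated E14, and 0.381 and 0.507 CPM in differentiated Pgk12.1, against 90.1 and 106 CPM in undifferentiated Pgk12.1, so the difference lay in the undifferentiated cells. AU015836 (4.42, adjusted p = 0.0219) rested on an uneven differentiated E14 pair, 8.86 and 50.04 CPM, against 2.84 and 2.94 CPM in undifferentiated E14. Apom (4.35, adjusted p = 0.0374), a lipoprotein of endoderm, had 30.1 and 13.4 CPM in differentiated E14, against 2.84 and 0.840 CPM in undifferentiated E14. Gfra1 (-9.73, adjusted p = 0.0206), Cap2 (-7.33, adjusted p = 0.0483) and Col12a1 (-6.62, adjusted p = 0.0222) had 0 counts in undifferentiated Pgk12.1, so the size of these fitted differences depends on the prior count. Col12a1, a matrix collagen, reached 398 and 359 CPM in differentiated E14 and 567 and 569 CPM in differentiated Pgk12.1.

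Against the RlimKO-labelled line, Hopx (9.09, adjusted p = 0.0414) had 0 and 17.4 CPM in differentiated E14, so 1 library carries it. Myl7 (6.21, adjusted p = 0.0113) had 15.5 and 51.1 CPM in differentiated E14, against 2.13 and 1.68 CPM in undifferentiated E14, and 0.986 and 1.39 CPM in the differentiated RlimKO-labelled line, against 4.72 and 6.00 CPM in the undifferentiated one. Gria4 (-9.35, adjusted p = 0.0213), Tmem98 (-8.04, adjusted p = 0.0127), Cpsf4l (-7.94, adjusted p = 0.0305) and Slitrk4 (-7.35, adjusted p = 0.0499) had 0 counts in the undifferentiated RlimKO-labelled line, with the same limit on their size.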

How the results depend on the processing

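Over all alternatives run for single named genes, 1632 values kept their direction and side of the threshold, 78 lost the call, 14 gained it and 0 reversed. Beside the 5005 calls reported, DESeq2 called 4299 genes (4214 of the 5005 among them), RLE scaling 5124 (4993), no filter 5753 (4852), the stricter filter 5022 (4926), the 12-library model 6820 (4943) and the fit with Rn45s and Lars2 kept 4991 (4850). A test against a change of 1 log2 unit gave 2212 (1348 higher and 864 lower, which also all counted as held), and asking each library for 2 log2 units, an alternative chosen after seeing the data, left 1034 rises and 564 falls held in both. Leaving out 1 E14 library moved the calls between 1436 and 7549, with 877 to 3974 rises and 559 to 3590 falls, of which 877 to 2873 rises and 559 to 2485 falls held. Differences from Pgk12.1 numbered 609 with no filter, 22 in a model of the 8 libraries compared and 15 to 1842 without 1 library; those from the RlimKO-labelled line numbered 753, 42 and 46 to 2044. Positive shares were 38.2% and 44.6% with the stricter filter and 31.9% and 42.2% with no filter, against 47.6% and 59.7%. Replicate numbers did not pair the samples (correlation of deviations 0.02 in E14); a fit with the replicate number as a block called 5197 genes, and 180 and 302 differences. With 1355006 counts, undifferentiated replicate 1 limits what can be seen of low genes.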
